A study of Mus musculus with 4 samples.

Results

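Genes of 37 chromatin modifiers and their partner transcription factors, chosen as a list of genes studied in drug reward, were followed in the globus pallidus of cocaine-conditioned mice. A gene was taken where the array's annotation gives a feature exactly its symbol, which held for 36 of the 37, with 78 features, out of 19044 genes tested; Suv39h1, a histone H3 lysine methyltransferase, was not analysed here. The study set male C57BL6 mice given cocaine (15 mg/kg on days 2, 3 and 4 of conditioned place preference, a test of learned preference for the drug-paired compartment) against male C57BL6 mice given saline on the same days. The cocaine mice were those with a high preference score. Each of 4 two-colour arrays carried 1 cocaine mouse and 1 saline mouse, so that 4 mouse pairs with 4 mice per treatment were measured, with Cy5 on the cocaine mouse in pairs 1 and 3 and on the saline mouse in pairs 2 and 4. The animal codes differ in all 8 channels, so the pairs are taken as separate animals, and p-values measure the spread between these pairs. The globus pallidus, a GABAergic nucleus of the basal ganglia, was sampled as tissue, so fewer cells of a type and less RNA per cell cannot be told apart in any value below.

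Histone deacetylases remove acetyl groups from histone tails and are known mainly as repressors, whereas acetyltransferases add these groups at active genes. Methyltransferases and demethylases set and remove methyl marks, DNA methyltransferases methylate cytosine, and TET dioxygenases oxidise that mark. Class IIa deacetylases are held at their targets by MEF2 factors and leave the nucleus when calcium signalling phosphorylates them, and CREB recruits the acetyltransferases CBP and p300. In rodent nucleus accumbens, the striatal region where most of this work was done, several of these proteins are known to alter cocaine reward.

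All values below are log2 ratios normalized within each array and given as cocaine over saline. That direction is likely rather than stated: the ratios of all features turned with the dye (correlations of 0.889 and 0.892 within a dye orientation and -0.947 to -0.847 between orientations, across features), so the columns run in 1 treatment direction, and the design names the cocaine mice first. If the numerator is saline, every sign below turns. A fitted change is the treatment coefficient of limma after a dye term, and its SE is moderated over all genes. Background is still in the ratios, as far as the whole-number signals behind them show, so changes of dim features are understated. The signal of a feature, recovered in scanner units, had a 5th percentile of 111 and a median of 184. The number of arrays limits the precision. The 7 measured markers of pallidal and GABA neurons differed in signal. Gad1, Gad2, Lhx6 and Npas1 had 13271, 19097, 9026 and 7300, and Pvalb and Nkx2-1 had 4871 and 1617, far over that floor. Kcng4, at 229, lay close to the median. Penk, a marker of striatal projection neurons, had 22824. Of the 6 measured markers of glutamatergic neurons, Slc17a7, Tbr1, Neurod6 and Neurod2 had signals of 127, 129, 116 and 154, under the median, and Slc17a6 and Emx1 signals of 246 and 432, over it. In pair 2 Emx1 was at -0.91, Slc17a6 at -0.47 and Tbr1 at -0.070. Slc17a7, Neurod6 and Neurod2 were at 0.19, 0.14 and 0.083 in that pair, and the list median was 0.0067.

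CREB and MEF2 factors are members of the list, and the promoters of the members were read for the motifs they bind. Motifs and printed windows were chosen after the values were seen. RefSeq windows of GRCm38.p6 (250 bases before to 50 after a transcript start) matched 30 of the 36 measured members, 42 windows in all; Hdac1, Hdac3, Hdac10, Mbd1, Kdm6b and Baz1a had none in the table. The CREB half-site CGTCA, on either strand, lay in 8 of these windows (19.0%), against 20.8% of all 32851 windows. The MEF2 palindrome, CTA and TAG with any 4 bases between them, lay in 4 (9.52%), those of Hdac2, Hdac5, Hdac9 and Mef2a, against 3.69%. The full CREB site TGACGTCA, which contains the half-site, lay in 0 member windows and in 1.79% of all. CpG dinucleotides were dense, with a median of 24 per member window against 7 over all windows. A match is a description of the sequence and not a bound site. Below are the windows of Hdac4 and Hdac5, close relatives of class IIa, and of Hdac11 and Baz1b, which had the lowest and the highest fitted change of the members. They run 5′ to 3′ on the gene's strand, with the CREB half-site (TGACG when read from the other strand) and the MEF2 palindrome in capitals.
Hdac4 (chr1:92180292-92180591, minus strand): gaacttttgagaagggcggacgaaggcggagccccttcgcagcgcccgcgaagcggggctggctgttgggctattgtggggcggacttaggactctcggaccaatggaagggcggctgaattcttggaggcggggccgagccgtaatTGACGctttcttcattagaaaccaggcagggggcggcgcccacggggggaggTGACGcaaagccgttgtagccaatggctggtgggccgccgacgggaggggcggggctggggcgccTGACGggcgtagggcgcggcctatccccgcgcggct
Hdac5 (chr11:102230123-102230422, minus strand): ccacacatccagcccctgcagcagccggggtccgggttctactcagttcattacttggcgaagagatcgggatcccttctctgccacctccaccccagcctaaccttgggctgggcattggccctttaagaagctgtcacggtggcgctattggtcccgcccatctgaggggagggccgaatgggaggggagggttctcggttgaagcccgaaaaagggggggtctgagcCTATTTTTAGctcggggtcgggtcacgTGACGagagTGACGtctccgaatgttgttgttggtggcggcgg
Hdac11 (chr6:91156565-91156864, plus strand): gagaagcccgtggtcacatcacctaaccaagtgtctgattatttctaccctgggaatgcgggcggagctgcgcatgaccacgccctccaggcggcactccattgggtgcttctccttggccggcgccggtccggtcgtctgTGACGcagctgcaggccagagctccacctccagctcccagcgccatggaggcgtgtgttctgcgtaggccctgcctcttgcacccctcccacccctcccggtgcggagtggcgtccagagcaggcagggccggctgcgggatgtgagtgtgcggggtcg
Baz1b (chr5:135187073-135187372, plus strand): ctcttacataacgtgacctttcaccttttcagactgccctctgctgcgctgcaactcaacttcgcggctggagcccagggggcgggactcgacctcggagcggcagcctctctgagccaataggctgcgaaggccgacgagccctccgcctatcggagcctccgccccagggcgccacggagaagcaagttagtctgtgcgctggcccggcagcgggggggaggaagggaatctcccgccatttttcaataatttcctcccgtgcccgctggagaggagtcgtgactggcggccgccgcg
The Hdac4 window held 3 CREB half-sites, the Hdac5 window held 2 together with 1 MEF2 palindrome, the Hdac11 window held 1, and the Baz1b window held neither motif.

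No chromatin modifier differed between cocaine and saline mice past the threshold. Of 36 members, 0 had an adjusted p under 0.05 in limma, and with unadjusted p-values under 0.05 there were 0 higher and 0 lower. Over all 19044 genes, 0% were higher and 0% lower at the adjusted threshold, and 0.903% were higher and 1.7% lower at the unadjusted one. The smallest adjusted p of a member was 0.969. Fitted changes ran from -0.16 for Hdac11 to 0.19 for Baz1b, with 21 members above 0 and 15 below. Their median was 0.0075, against -0.0063 over all genes, and it turned to -0.022 with median centring and -0.092 with the ratios as deposited. The median absolute change was 0.069 for the members and 0.050 for all genes, and 9 members (25%) lay beyond 0.1 in either direction, where 21.9% of all genes did.

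The interval of each change gives the sizes these ratios allow. The 95% interval of limma held 0 for all 36 members, and its reach to either side was 0.13 to 0.31 log2 (median 0.17). For 31 members that reach was under 0.25 log2, a factor of 1.19. The widest spans were those of Hdac1, -0.46 to 0.17, and Kat2a, -0.35 to 0.19. Narrow spans around values near 0 were those of Hdac5 (-0.12 to 0.15), Dnmt3b (-0.13 to 0.14) and Ehmt2 (-0.14 to 0.14). The feature of Dnmt3b was dim, with a signal of 121 against 8155 for Hdac5 and 10589 for Ehmt2. Changes of dim features are understated, so the span of Dnmt3b bounds its ratio and not the change of its RNA. The same limit holds for Baz1a, Kat2a, Tet1, Ezh2 and Sirt6. These 6 members had no feature over 220, the median signal of features with 1 symbol. The brightest features of Hdac8, Hdac2, Hdac1 and Hdac9 lay not far over it, at 233, 237, 263 and 288. An interval that holds 0 does not show that a gene was equal in both treatments.

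**Figure D1:**
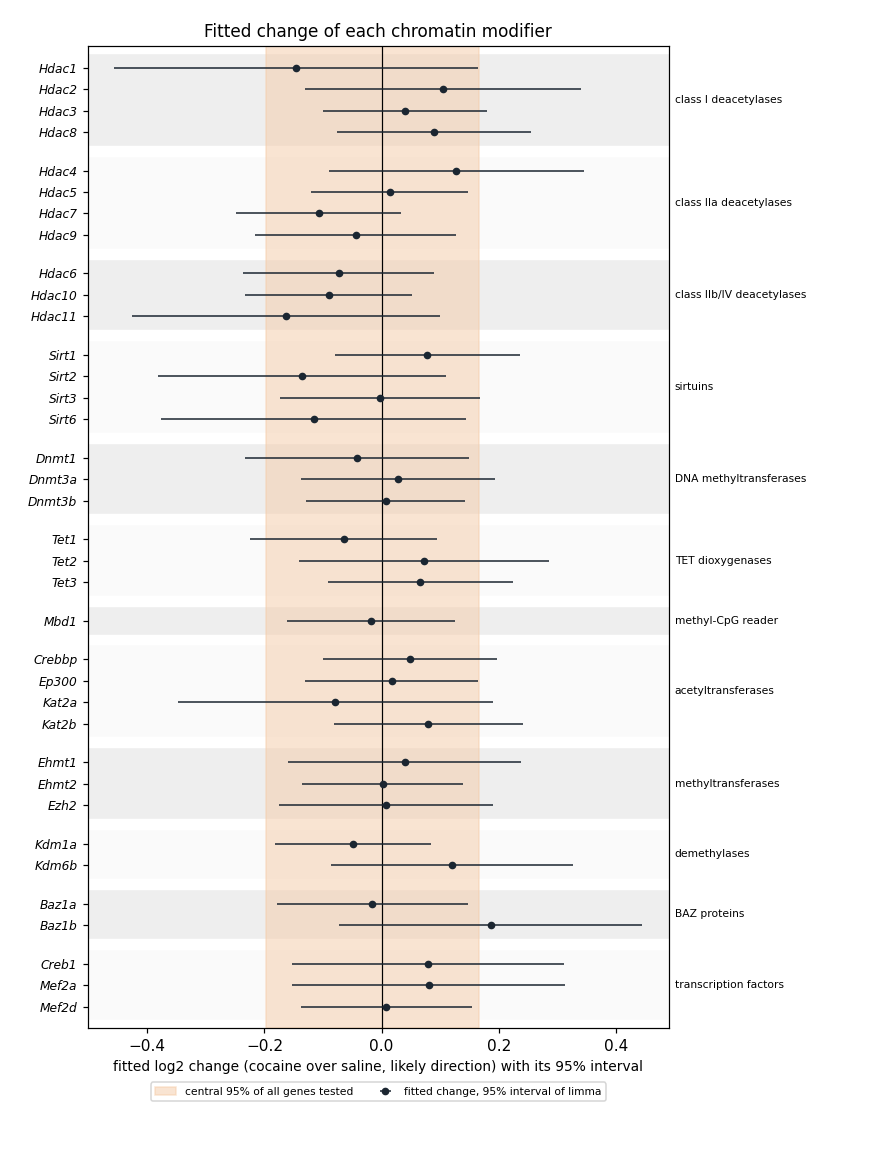
Fitted log2 change of each of the 36 members (points) with its 95% interval from limma, ordered by enzyme class; the shaded band holds the central 95% of all genes tested, -0.20 to 0.17. Every interval crosses 0, and among the points only that of Baz1b, at 0.19, lies outside the band.

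The number of members above 0 differed between the pairs. In pair 1, 26 of 36 members were above 0, in pair 2 18, in pair 3 20 and in pair 4 12, while 48.3%, 46.7%, 51.7% and 49.5% of all genes were. Pairs 1 and 4 thus lay on opposite sides for the list, with medians of 0.099 and -0.096. This was not particular to the members: the medians of 100 other chromatin genes were 0.11, 0.046, 0.026 and -0.035 in pairs 1 to 4. The same sign in all 4 pairs was seen for 1 member, Kdm1a, where 6.06% of all genes had it. Kdm1a, the lysine demethylase LSD1 of the CoREST complex, had ratios of -0.0083, -0.083, -0.016 and -0.088 in pairs 1 to 4. All of them were small, and the fitted change was -0.049 ± 0.055 (moderated SE, n = 4, adjusted p = 0.969 in limma).

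**Figure D2:**
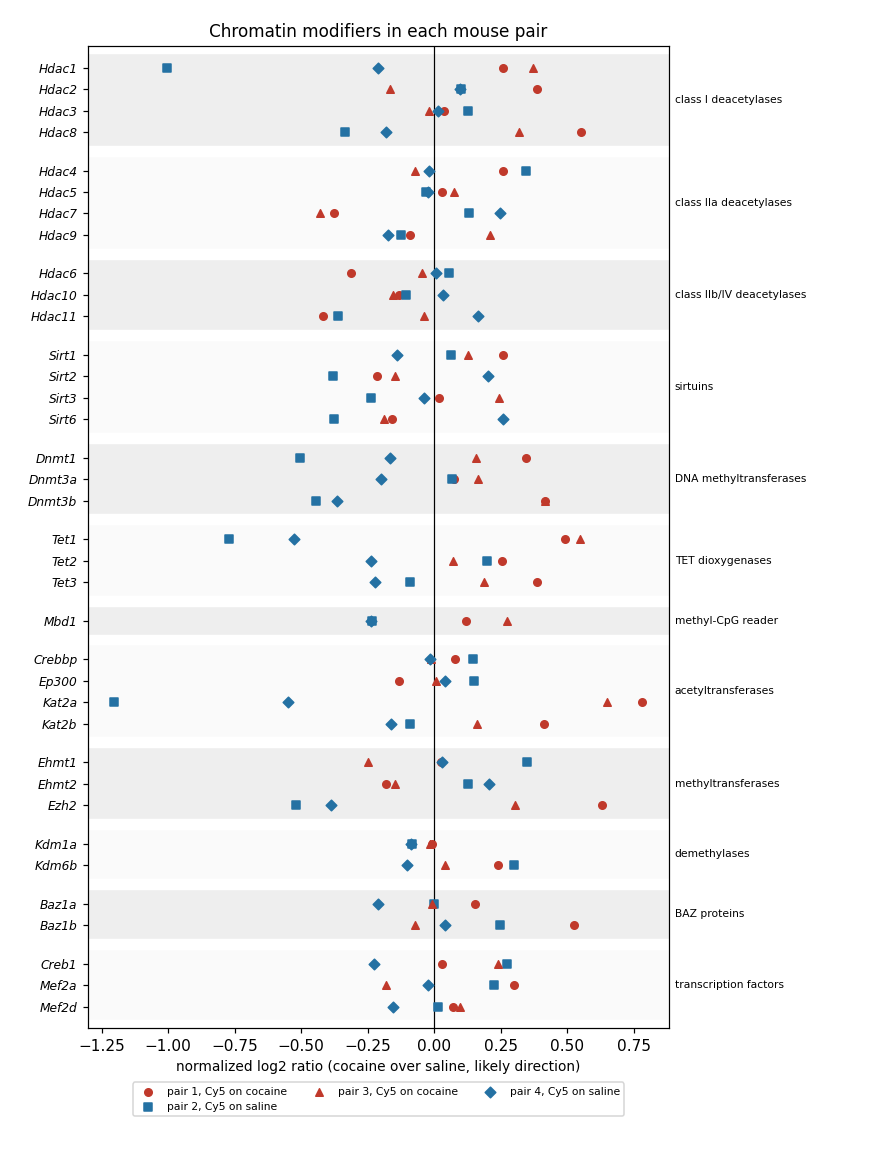
Normalized log2 ratio of each member in each of the 4 mouse pairs, by enzyme class; red symbols are pairs with Cy5 on the cocaine mouse and blue symbols pairs with Cy5 on the saline mouse. Red and blue symbols fall on opposite sides of 0 for genes such as Kat2a and Tet1, while for Hdac4, Hdac11 and Baz1b pairs of 1 colour also lie apart.

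Class I deacetylases, mostly nuclear enzymes of large corepressor complexes, had 3 of 4 members above 0 and a median of 0.065, which turned to -0.0048 when arrays were only centred on their medians, -0.075 with the ratios as deposited and -0.0036 without pair 1. Hdac8, a class I enzyme that deacetylates cohesin, had ratios of 0.55, -0.33, 0.32 and -0.18 in pairs 1 to 4. They were above 0 where the cocaine mouse carried Cy5 and below 0 where it carried Cy3. That pattern was set by its dimmer feature (signal 147), at 1.16, -1.05, 0.65 and -0.47. The brighter one (signal 233) had -0.051, 0.38, -0.0084 and 0.10. The fitted change of Hdac8 was 0.090 ± 0.068 (moderated SE, n = 4, adjusted p = 0.969 in limma). It was 0.031 without pair 1, 0.052 without pair 4 and 0.15 without pair 3. Hdac3, the catalytic subunit of the NCoR and SMRT corepressors, stayed close to 0 in every pair, at 0.036, 0.13, -0.018 and 0.016. Hdac1 and Hdac2, which share the Sin3, NuRD and CoREST complexes, had fitted changes of -0.15 and 0.10. That of Hdac1 rested on pair 2, where the ratio was -1.0, against 0.26, 0.37 and -0.21 in pairs 1, 3 and 4, and was 0.052 without pair 2. The signs of Hdac1 also followed the dye orientation, from 1 feature with a signal of 263. Its dye effect was 0.46 (adjusted p = 0.080 in limma). Hdac2 had 0.39, 0.10, -0.17 and 0.097 in pairs 1 to 4, highest in pair 1, and -0.034 without that pair.

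Class IIa deacetylases, the MEF2-bound and calcium-regulated group, were split, with 2 members above 0 and 2 below and a median of -0.015 (0.028 without pair 1, -0.18 with the ratios as deposited and -0.11 with median centring alone). Hdac4 had ratios of 0.26, 0.34, -0.073 and -0.019 in pairs 1 to 4. Pairs 1 and 2 were above 0 and pairs 3 and 4 close to it, whatever the dye. The fitted change was 0.13 ± 0.089 (moderated SE, n = 4, adjusted p = 0.969 in limma), with 0.037 without pair 2 and 0.22 without pair 4. Markers of striatal projection neurons, 8 of 10 measured, were also highest in pair 2, with pair medians of -0.13, 0.35, -0.061 and -0.19. In that pair Pdyn was at 2.05, Drd1 at 0.97 and Rgs9 at 0.77, while Drd2 and Ppp1r1b were at -0.15 and -0.58, and without it 0 of the markers were above 0. Hdac4, Kdm6b and Creb1 each had their highest ratio in pair 2, as did Ehmt1, Ep300, Crebbp, Hdac3 and Hdac6. Of all members, 18 were above 0 in that pair and 18 below. The part of the striatal markers in these values was not tested. Hdac5, the close relative of Hdac4 and the class IIa enzyme best known in cocaine reward, had 0.032, -0.029, 0.073 and -0.022, the flattest series of the class. Its fitted change was 0.013 ± 0.055, from a feature with a signal of 8155. Hdac7 had the smallest unadjusted p of all members (0.112 in limma), with a fitted change of -0.11 ± 0.058 (n = 4, adjusted p = 0.969). Its ratios, -0.38, 0.13, -0.43 and 0.25, were negative with Cy5 on cocaine and positive with Cy5 on saline. Hdac9, a class IIa enzyme with truncated forms, had a fitted change of -0.044 over 4 features and 0.031 without pair 1.

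The class IIb enzymes Hdac6, a cytoplasmic tubulin deacetylase, and Hdac10, a polyamine deacetylase, and the class IV enzyme Hdac11 were all 3 below 0, with a median of -0.090. The median kept its sign in each of the 13 alternative settings run, and ran from -0.32 with the ratios as deposited to -0.055 without pair 2. Hdac11, a fatty acyl-removing enzyme abundant in brain, had ratios of -0.42, -0.36, -0.039 and 0.16 in pairs 1 to 4. Pairs 1 and 2 were low and pair 4 was high. The fitted change was -0.16 ± 0.11 (moderated SE, n = 4, adjusted p = 0.969 in limma), -0.032 without pair 2, -0.069 without pair 1, -0.26 without pair 3 and -0.29 without pair 4. Hdac10 had -0.13, -0.11, -0.16 and 0.034, below 0 in the first 3 pairs and just above it in pair 4. Its fitted change was -0.090 ± 0.058 (n = 4, adjusted p = 0.969 in limma). Hdac6 had -0.31, 0.056, -0.047 and 0.0083 in pairs 1 to 4, a fitted change of -0.073 ± 0.067, and -0.0074 without pair 1.

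Sirtuins, the NAD-dependent deacetylases, had 1 of 4 members above 0 and a median of -0.060, which was 0.035 without pair 2. Sirt2, a mostly cytoplasmic sirtuin and a known component of myelin, had ratios of -0.22, -0.38, -0.15 and 0.20 in pairs 1 to 4. Pair 4 stood above 0 and the other three below. The fitted change was -0.14 ± 0.10 (moderated SE, n = 4, adjusted p = 0.969 in limma), and 0.010 without pair 2. The feature with a signal of 359 was lowest in that pair, at -1.08. Of the brighter features, the one with 6147 had -0.15, -0.16, -0.17 and 0.19 in pairs 1 to 4 and a fitted change of -0.072. The one with 10285 had -0.39, 0.094, -0.33 and 0.40 and a fitted change of -0.056. Oligodendrocyte markers, 9 of 10 measured, had medians of 0.22, -0.18, -0.021 and 0.12 in the 4 pairs and 4 genes above 0 in the fit, with a fitted median of -0.013 (-0.070 to 0.083 without 1 pair). Their part in the Sirt2 and Hdac11 values was not tested. Sirt6, a chromatin-bound sirtuin of DNA repair, had -0.16, -0.38, -0.19 and 0.26, lowest in pair 2 and highest in pair 4 like Sirt2. Its fitted change of -0.12 became 0.043 without pair 2. Sirt1, the best-studied nuclear sirtuin, and the mitochondrial Sirt3 had fitted changes of 0.078 and -0.0034. Sirt1 lay at 0.26, 0.062, 0.13 and -0.14 in pairs 1 to 4, and Sirt3 turned to 0.053 without pair 1 and 0.047 without pair 2.

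None of the members that are DNA methyltransferases, TET dioxygenases or methyl-CpG readers lay beyond 0.1 in fitted change. The class medians of 0.0066 for the methyltransferases and 0.066 for the TET genes turned to -0.090 and -0.013 with the ratios as deposited. The first also turned to -0.020 with median centring, -0.042 with the brightest feature and -0.013 without pair 4, and the second to -0.0037 without pair 2. The maintenance methyltransferase Dnmt1 and the de novo enzymes Dnmt3a and Dnmt3b had fitted changes of -0.042, 0.028 and 0.0066. The signs of Dnmt1 and Dnmt3a turned without pair 2 (0.043 and -0.039), that of Dnmt1 also without pair 3 (0.0053), and that of Dnmt3b without pair 4 (-0.013). Dnmt3b was dim, with a signal of 121, and its ratios of 0.42, -0.44, 0.42 and -0.37 were almost mirror images between dye orientations. Tet1, Tet2 and Tet3 had -0.065, 0.072 and 0.066. Tet1 lay at 0.49, -0.77, 0.55 and -0.53 in the 4 pairs, with signs that follow the dye orientation. Tet2 lay at 0.25, 0.20, 0.071 and -0.24, above 0 in pairs 1 to 3 and below it in pair 4, and its fitted change was -0.037 without pair 2. Mbd1, a methyl-CpG reader, had -0.018 ± 0.059 (moderated SE, n = 4) and 0.020 without pair 1.

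Among acetyltransferases, 3 of 4 were above 0, with a median of 0.033 (-0.031 with the ratios as deposited). Crebbp, which encodes the CREB-binding protein, and its paralog Ep300 had fitted changes of 0.048 ± 0.061 and 0.017 ± 0.060 (moderated SE, n = 4). Crebbp lay at 0.078, 0.14, -0.013 and -0.016 in pairs 1 to 4, and Ep300 turned to -0.010 without pair 2 and -0.018 without pair 3. Kat2b, the PCAF acetyltransferase, had 0.080 and Kat2a, its GCN5 paralog, -0.079. Kat2a had the widest ratios of any member, 0.78, -1.20, 0.65 and -0.55, from 1 feature with a signal of 152, with signs that again follow the dye orientation. Without pair 2 its fitted change was 0.084.

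The fitted changes of the histone methyltransferases lay between 0.0017 and 0.039, though single pairs lay further out. Ehmt2 (G9a) and Ehmt1 (GLP), partners in dimethylation of histone H3 lysine 9, had 0.0017 ± 0.056 and 0.039 ± 0.082 (moderated SE, n = 4), and Ezh2, the Polycomb methyltransferase, 0.0073 ± 0.075. Ehmt2, one of the best-studied of these enzymes in cocaine reward, lay at -0.18, 0.13, -0.15 and 0.21 in pairs 1 to 4, from a feature with a signal of 10589. Ezh2 had ratios of 0.63, -0.52, 0.30 and -0.39 in pairs 1 to 4, with signs that follow the dye orientation. They came from 1 dim feature, with a signal of 195. The fitted change of Ezh2 turned to -0.075 without pair 1 and -0.026 without pair 4, and that of Ehmt2 to -0.0065 without pair 3 and -0.018 without pair 4. Ehmt1 turned to -0.029 without pair 1 and -0.040 without pair 2. With the ratios as deposited and with median centring alone, the class median of 0.0073 turned to -0.22 and -0.15, and it was -0.029 without pair 1 and -0.018 without pair 4. Kdm6b, the JMJD3 demethylase that removes the mark set by Ezh2, had ratios of 0.24, 0.30, 0.042 and -0.10 in pairs 1 to 4. Pairs 1 and 2 were the highest and pair 4 lay below 0. Its fitted change was 0.12 ± 0.085 (n = 4, adjusted p = 0.969 in limma), 0.018 without pair 2, 0.070 without pair 1 and 0.22 without pair 4. Of the demethylases, Kdm6b was thus above 0 and Kdm1a below.

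Baz1b, a subunit of the WICH remodelling complex and a histone H2A.X kinase, had the highest fitted change of the members, 0.19 ± 0.11 (moderated SE, n = 4, adjusted p = 0.969 in limma). Its ratios were 0.53, 0.25, -0.072 and 0.042 in pairs 1 to 4. Pair 1 was the highest, and the change was 0.036 without it and 0.34 without pair 3. Its feature with a signal of 571 gave 0.30 ± 0.16 and the dimmer one, at 186, 0.073 ± 0.086. Endothelial and pericyte markers had 6 of 6 genes above 0 with a median of 0.12. Their pair medians, 0.40, 0.061, 0.048 and -0.015, were also highest in pair 1. Pecam1, Tek, Rgs5 and Pdgfrb had their highest ratio in that pair. Flt1 was highest in pair 2, at 0.30, and Cldn5 was lowest in pair 1, at -0.23. The count of these markers above 0 was 3 with median centring and 3 with the ratios as deposited. Their part in the Baz1b value was not tested. Baz1a, of the ACF and CHRAC remodelling complexes, had -0.016 ± 0.067, 0.024 without pair 3 and 0.036 without pair 4.

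The transcription factors Creb1, Mef2a and Mef2d were all 3 above 0, with a median of 0.079, which turned to -0.089 with the ratios as deposited, -0.018 with median centring alone and -0.034 without pair 2. Creb1, the cAMP response element-binding protein, is covered by 12 features, the most of any member, and all 12 had a fitted change above 0, from 0.0097 to 0.15. These features read the same RNA and are not replicates. As a gene its ratios were 0.030, 0.27, 0.24 and -0.23 in pairs 1 to 4, with pairs 2 and 3 high and pair 4 low. The fitted change was 0.079 ± 0.095 (n = 4), -0.046 without pair 2 and 0.20 without pair 4. Mef2a lay at 0.30, 0.23, -0.18 and -0.023 and had 0.080 ± 0.095 and -0.040 without pair 1. Mef2d had 0.0076 ± 0.060 and -0.034 without pair 2.

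The dye effect exceeded the treatment change for 23 of 36 members, and for 69.2% of all genes. It passed an adjusted p under 0.05 in limma for 6 members (16.7%), against 9.55% of all genes. These were Kat2a, Tet1, Ezh2, Dnmt3b and Hdac8 with a positive effect (0.80, 0.59, 0.46, 0.41 and 0.35 for Cy5 over Cy3) and Hdac7 with a negative one (-0.30). The 5 positive ones had no feature with a signal of 300 or more. The fitted change takes the mean of both orientations, so this effect does not enter it, nor its SE.

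**Figure D3:**
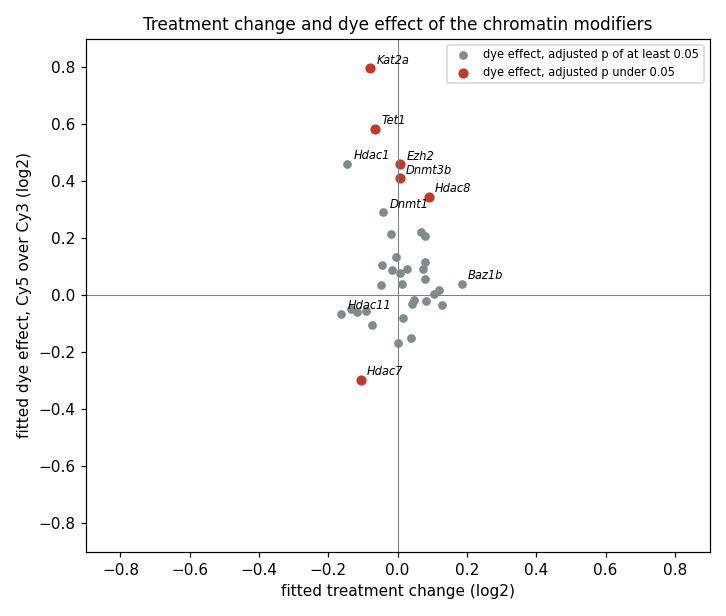
Fitted dye effect (Cy5 over Cy3, log2) against fitted treatment change (log2) for the 36 members, on equal axes; red points are the 6 members whose dye effect passed the adjusted threshold. The points spread from -0.30 to 0.80 along the dye axis and from -0.16 to 0.19 along the treatment axis.

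Of 18 members with several features, 9 had features on both sides of 0. The share over all genes with several features was not counted, so this cannot be called particular to the members. For some members, features of 1 gene told the pairs differently. Hdac7 is an example within a shared sign: its feature with a signal of 1471 had -0.089, -0.10, -0.20 and -0.045 in pairs 1 to 4, below 0 in each, while the one with 652 had -0.67, 0.36, -0.66 and 0.54 and carried the dye effect of the gene. Both had nearly the same fitted change, -0.11 and -0.11. For Crebbp, the brightest feature (1418) had 0.23, 0.13, 0.13 and 0.10, above 0 in each pair, with a fitted change of 0.15 ± 0.063 (n = 4) and the smallest unadjusted p of the members' features (0.0594, adjusted p = 0.974 in limma). Its dimmer features, at 184 and 174, had 0.029 and -0.033. For Sirt1 the feature with 1267 had 0.23 and the one with 256 had -0.077. For Kat2b the feature with 1927 had 0.26, against -0.063 and 0.039 for the others. With only the brightest feature of each gene, 4 members (Crebbp, Hdac7, Hdac10 and Kdm1a) had the same sign in all 4 pairs, where 6.5% of all genes did. Of single features, 5 of 78 kept 1 sign in all 4 pairs, against 6.17% of all features. These features were singled out after their values were seen, and 0 of 78 member features passed the adjusted threshold, with 0 at an unadjusted p under 0.05 (over all features, 0% and 2.05%).

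**Figure D4:**
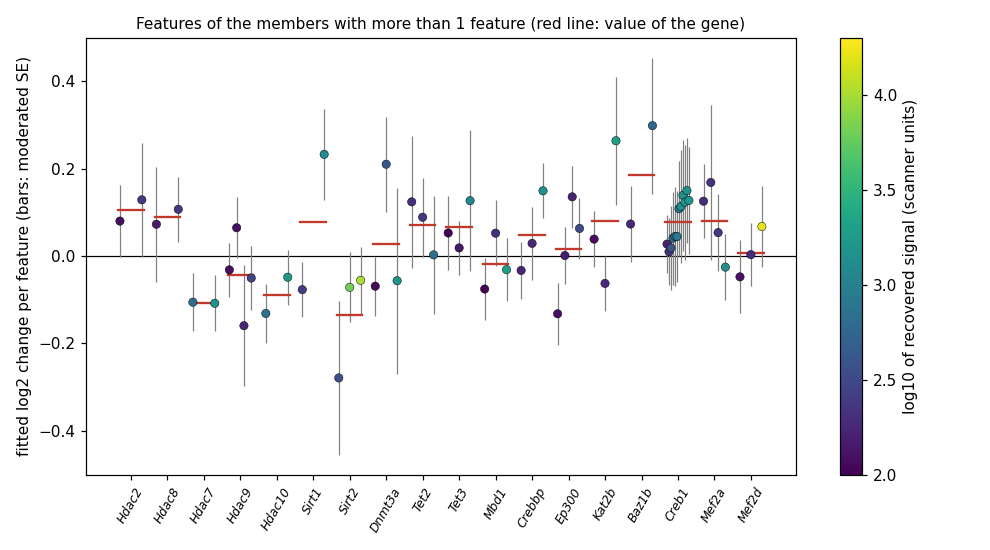
Fitted log2 change (points, bars are the moderated SE) of each feature of the 18 members with more than 1 feature, coloured by the log10 of the recovered signal; the red line is the value of the gene. The 12 Creb1 features all lie above 0, whereas those of Sirt1, Dnmt3a and Kat2b lie on both sides.

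No gene of a wider chromatin list passed the threshold. Of 108 further genes, 100 were measured, 56 above and 44 below 0 with a median of 0.016, and 0 passed (1 higher, 0 lower where unadjusted limma p-values under 0.05 are counted). The median was -0.029 with median centring and -0.10 with the ratios as deposited. Counts above 0 depended on the normalization. Partners of the deacetylases had 9 of 13 above 0, but 2 and 0 with median centring and with the ratios as deposited. In the same order, further lysine and arginine methyltransferases had 12 of 19, then 8 and 2. Polycomb members had 6 of 10, then 3 and 0, and 3 without pair 1. Demethylases had 8 of 14, then 9 and 1. Remodelling and bromodomain proteins had 11 of 18, then 6 and 2. Methyl-CpG readers and DNA methylation partners had 3 of 10, then 6 and 3, and 7 without pair 2 and 6 without pair 3. Further acetyltransferases had 0 of 6 above 0 and a median of -0.047, negative in each of the 13 alternatives. Further sirtuins had 3 of 3 above 0, but 0 with median centring and with the ratios as deposited, and CREB, MEF2 and coactivator genes 4 of 7, then 4 and 1.

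The smallest unadjusted p upward was that of Cbx7, a reader in Polycomb complexes, which had 0.31, 0.13, 0.25 and -0.074 in pairs 1 to 4 and a fitted change of 0.15 ± 0.062 (moderated SE, n = 4, adjusted p = 0.969 in limma). It was above 0 in 3 pairs. Kmt5a, which methylates histone H4, had 0.24 ± 0.10 and was above 0 in all 4 pairs, at 0.56, 0.33, 0.0068 and 0.073, with 0.10 without pair 1. Kdm5c, an X-linked demethylase, had 0.16 ± 0.086 and 0.046 without pair 1. Downward, Mbd3, of the NuRD complex, had -0.22 ± 0.099 and -0.084 without pair 2, Actl6b, a neuronal BAF subunit, -0.15 ± 0.086 and -0.049 without pair 2, and Crtc2, a CREB coactivator, -0.088 ± 0.055. Mbd3 was below 0 in pairs 1 to 3 and above 0 in pair 4, as Sirt2 and Hdac10 were, with -0.46, -0.34, -0.28 and 0.20. All of these missed the adjusted threshold.

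Signs of many members depended on single pairs. Leaving out 1 pair turned the sign of 20 of 36 members at least once, where 52.4% of all genes turned. The members that kept their sign in all of these fits were Hdac3, Hdac4, Hdac5, Hdac6, Hdac7, Hdac8, Hdac10, Hdac11, Sirt1, Tet1, Tet3, Crebbp, Kat2b, Kdm1a, Kdm6b and Baz1b. The tightest was Kdm1a, from -0.051 to -0.047. Normalization mattered for bright genes: with median centring in place of loess, 6325 genes with a feature over a signal of 1000 had a median of -0.14 against 0.029 for the rest, and the 21 members among them -0.15. Under that setting 10 members turned sign, Hdac5 among them at -0.19, and 0 passed.

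**Figure D5:**
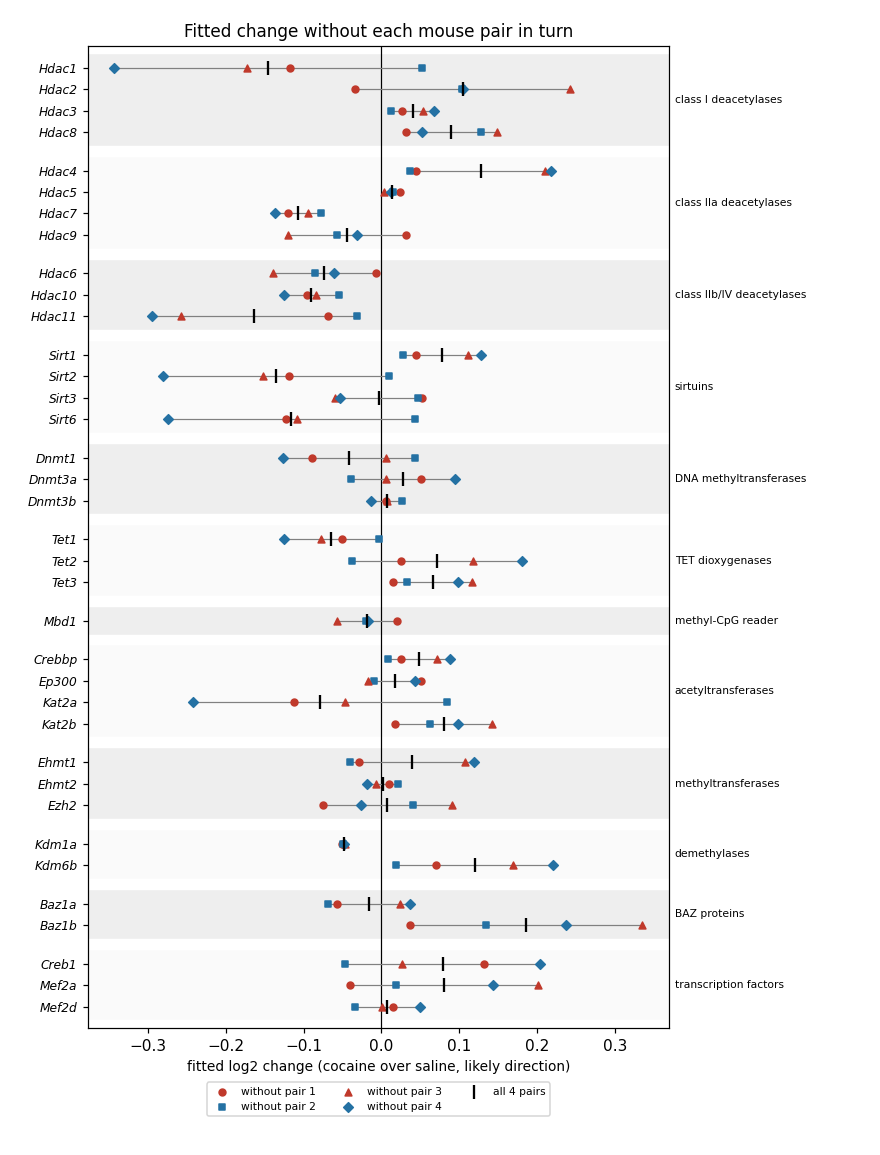
Fitted log2 change of each member with all 4 pairs (black bar) and without each pair in turn (symbols, joined by a line), by enzyme class. The lines of Hdac1, Sirt2, Sirt6 and Kat2a cross 0 only through the fit without pair 2, and that of Kdm1a is the shortest.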

How the data were processed

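RNA was purified with a PicoPure kit and labelled by linear amplification, per the labels' protocols, and Agilent Feature Extraction, with no version, is the tool named in the submitters' processing notes; which background and dye corrections were applied is not stated there. Deposited were log2 ratios, 1 for each feature of an array (45220 features, 0 missing). On arrays 1 and 3, 2 to the power of the value was a ratio of whole numbers (within 1e-12 on the log2 scale) for 98.3% and 98.3% of values, so the ratios are read as those of raw scanner signals. Feature brightness was recovered from these fractions for 99.5% of features (correlation 0.998 between the arrays, a correlation the recovery favours, since it picks multiples that agree) and used for all 4 arrays; the recovery was tested on simulated data. It allows a spread between the arrays of 0.15 log2, kept out of 5 values tried (0.05, 0.1, 0.15, 0.2 and 0.3) because it recovered most of the simulated signals, and the simulation itself had been rewritten, with the ratios of the files in place of random ones, after a first version scored lower. Both choices came before any gene was tested, and the lowest and highest values were added as alternatives. The simulation took its signals and their spread between the arrays (0.138 log2) from the recovery at 0.15. That favours 0.15 in advance, so the score cannot decide between the 5 values. Ratios were normalized by loess on features listed with a gene (span 0.3, 4 iterations, limma 3.58.1, R 4.3.3). Of the features, 33653 had 1 symbol, 56 several and 11511 none; 133 with a symbol had no recovered signal and were left out. Features of a symbol were averaged, and 19044 genes entered 1 limma fit (lmFit and eBayes) with a treatment and a dye term, 2 residual and 4.05 prior degrees of freedom, two-sided p-values and Benjamini-Hochberg adjustment over all of them; the fit was tested on simulated data. Members, lists and tests were chosen with earlier results of these data known. Named in full were the 8 members with the smallest unadjusted p and those of 1 sign in all pairs, and of the wider chromatin list the 3 with the smallest unadjusted p in each direction; other single features were named after their values were seen. Slide, scan date and saturation were not analysed here.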

Additional observations from a re-analysis of the deposited data

How the results depend on the processing

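In each of the 13 alternatives, 11 planned and 2 added after the data were seen, 0 members passed the threshold in limma; the smallest adjusted p of a member was 0.175, for Hdac1 without pair 4. Without pair 4, 8 members had an unadjusted p under 0.05, as did 13.3% of all genes, and without pair 3 2 members and 5.43%. Over all genes, 0 to 1 were higher and 0 to 4 lower past the threshold without 1 pair (3 lower without pair 2); such fits have 1 array in 1 orientation, assumed to vary like the 2 arrays of the other. As deposited, the median of all genes was -0.083, and the medians of all members, of class IIa, class IIb and IV, methyltransferase, demethylase, transcription factor and other chromatin genes were -0.092, -0.18, -0.32, -0.22, -0.19, -0.089 and -0.10. With median centring, class IIa, class IIb and IV, methyltransferases and demethylases had -0.11, -0.25, -0.15 and -0.12. Both leave the trend with brightness in the ratios. Without dim features the BAZ median was 0.30, from Baz1b alone. The class IIa median ran from -0.046 to 0.028 without 1 pair. Signs turned for 18 members as deposited, 10 with median centring, 1 with a wider loess span, 2 with arrays scaled to 1 spread, 2 with the brightest feature, 1 and 0 with the lowest and highest spread in the signal recovery, and 0 without the dye term, which changes the SE only, or without dim features, which leaves 30 members. Without pairs 1 to 4 in turn, 7, 12, 4 and 4 turned. Each value is a ratio within a mouse pair, so the main fit is itself paired.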

Other observations

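Among 68 series of 4 pair values checked (members and list medians), 0 held a pair that stood apart by Dixon's test. The test marks about 1 in 20 by chance where the values of a series share 1 centre. These values still held the dye effect, which exceeded the treatment change for 23 of 36 members. A split by dye orientation, as for Kat2a (0.78, -1.20, 0.65 and -0.55 in pairs 1 to 4), widens the range against which a pair is judged. The count of 0 therefore cannot decide whether a pair was outlying.

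Markers of cell types were counted under the main normalization. Pallidal and GABA neuron markers had a median of -0.052 (3 of 7 above 0; -0.087 to -0.0089 without 1 pair), striatal projection neuron markers 0.0074 (5 of 8; -0.11 to 0.18 without 1 pair), glutamatergic neuron markers -0.021 (1 of 6; -0.074 to -0.0060 without 1 pair), astrocyte markers 0.064 (4 of 6; 0.0041 to 0.089 without 1 pair), microglial markers 0.029 (5 of 7; -0.031 to 0.092 without 1 pair) and red cell transcripts -0.044 (0 of 2; -0.29 to 0.20 without 1 pair). With median centring the medians of these lists were, in the same order, -0.14, -0.070, 0.037, -0.038, -0.15 and -0.15, so that 4 of them changed sign. Among endothelial and pericyte markers, the highest was Rgs5 at 0.32 ± 0.14 (moderated SE, n = 4), short of the threshold. Around the member features, the largest median of the 30 features with the nearest feature numbers was at a Creb1 feature in pair 2, -0.24, where that feature itself had 0.53.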
